A study of Mus musculus with 22 samples.

Results

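Cux2, Lamp5, Rorb, Etv1, Fezf2, Bcl11b, Crym, Tbr1 and Foxp2 are 9 genes used to tell the cell layers of the mouse neocortex, and in part the subiculum, from one another. They were taken as a fixed list by gene symbol from the 23361 genes of an expression matrix of the hippocampal CA1 region. The rule used no expression value, but the genes were chosen with earlier results of these data known. Cux2, Lamp5 and Rorb mark the upper layers (3 genes), whereas Etv1, Fezf2, Bcl11b, Crym, Tbr1 and Foxp2 mark the deep layers (6 genes). All 9 passed the expression filter, which kept 16978 genes whose FPKM averaged 0.1 or more across the 22 libraries. FPKM counts fragments per transcript length and per size of the library, so levels can be compared between genes.

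The study sequenced mRNA from dissected CA1 tissue of wild-type female mice, offspring of a Swiss Webster by DBA/C57BL6 cross, to ask how long-term calorie restriction changes expression during aging. Mice ate without limit (ad libitum, AL) or received a calorie-restricted (CR) diet with less carbohydrate, started in young adulthood. The 4 groups were AL at 5 months (n = 5), CR at 5 months (n = 5), AL at 15 months (n = 6) and CR at 15 months (n = 6), with 1 library per mouse. All 22 mice were perfused before the CA1 region was microdissected, and a library of such tissue can hold RNA from neighboring regions.

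Neocortical excitatory neurons are stacked in layers that are generated in sequence, the deep layers first and the upper layers last. Transcription factors restrict each other during this sequence: Fezf2 and Bcl11b direct neurons that project to the brainstem and spinal cord, Tbr1 directs neurons that project to the thalamus, and Cux2 is kept in upper-layer neurons. Some of these genes are also active outside the neocortex: Bcl11b is also made by CA1 pyramidal neurons and dentate granule cells, and Lamp5 by a class of interneurons.

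The genes lie on 7 chromosomes of the mouse genome (GRCm38, GENCODE M21), and all are protein coding. Cux2 lies at chr5:121856366-122050102 on the minus strand, Lamp5 at chr2:136052239-136069917 on the plus strand and Rorb at chr19:18930605-19111196 on the minus strand. Among the deep-layer genes, Etv1 lies at chr12:38779380-38870484 (plus), Fezf2 at chr14:12342094-12348189 (minus) and Bcl11b at chr12:107910403-108003602 (minus). Crym lies at chr7:120186380-120202111 (minus), Tbr1 at chr2:61802930-61814114 (plus) and Foxp2 at chr6:14901349-15441977 (plus). Cux2 overlaps 2 antisense genes, Gm3970 and Gm15637, and the library kit does not keep the strand, so reads of Cux2 and of these genes cannot be told apart where they overlap.

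The sequences just before the transcript start were taken from RefSeq (GRCm38.p6), where 7 of the 9 genes had an entry with 11 start sites in all, Crym and Foxp2 being the others. The 4 windows shown here are each the 250 bases before an annotated start of a gene described below and hold no base annotated as untranslated region: Rorb at chr19:19111197-19111446 (minus strand), Cux2 at an internal start, chr5:122047826-122048075 (minus), Tbr1 at chr2:61804203-61804452 (plus) and Etv1 at chr12:38779832-38780081 (plus). They are shown so that upper-layer genes and deep-layer genes that moved in opposite directions with age in AL mice can be read side by side. Capitals mark matches, on either strand, to the letters searched.
Rorb: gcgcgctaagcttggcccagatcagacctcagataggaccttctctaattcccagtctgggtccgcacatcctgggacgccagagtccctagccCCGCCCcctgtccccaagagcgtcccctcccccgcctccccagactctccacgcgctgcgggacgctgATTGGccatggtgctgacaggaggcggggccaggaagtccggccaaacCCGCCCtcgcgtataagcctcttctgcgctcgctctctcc
Cux2: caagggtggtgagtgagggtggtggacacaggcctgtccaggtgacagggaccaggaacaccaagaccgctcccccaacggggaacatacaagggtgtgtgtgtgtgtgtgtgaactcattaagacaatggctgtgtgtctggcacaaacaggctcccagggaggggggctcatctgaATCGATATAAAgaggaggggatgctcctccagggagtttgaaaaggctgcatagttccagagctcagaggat
Tbr1: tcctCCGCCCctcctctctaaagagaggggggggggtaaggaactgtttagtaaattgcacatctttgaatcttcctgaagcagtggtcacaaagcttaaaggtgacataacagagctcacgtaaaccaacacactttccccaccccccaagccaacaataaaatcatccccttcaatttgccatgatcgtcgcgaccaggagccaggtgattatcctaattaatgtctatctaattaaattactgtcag
Etv1: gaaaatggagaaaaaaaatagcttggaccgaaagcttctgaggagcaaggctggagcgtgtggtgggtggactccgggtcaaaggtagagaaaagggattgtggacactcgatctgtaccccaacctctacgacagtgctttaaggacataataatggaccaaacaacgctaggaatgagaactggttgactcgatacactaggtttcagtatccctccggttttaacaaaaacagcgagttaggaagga
Among general promoter letters, GGGCGG stood for the GC box, CCAAT for the box of that name and TATAAA for the TATA box. The T-box factors, Tbr1 among them, were searched as TCACACC. For the ROR factors, Rorb among them, the letters were AGGTCA. The CUX factors, which include Cux2, were searched as ATCGAT, while FOXP factors such as Foxp2 were searched as TGTTTAC. For the ETS factors, Etv1 among them, the letters were CCGGAAGT. The Rorb window holds 2 GC boxes and 1 CCAAT box, which are present in 32.7% and 33.8% of 32851 windows of the same length. The Cux2 window holds 1 CUX match and 1 TATA match that overlap, and these letters are present in 0.728% and 12.4% of all windows. Of its 250 bases, 66 lie in annotated exons of Cux2. The Tbr1 window, which lies in an exon of a longer non-coding transcript, holds 1 GC box, and the Etv1 window holds none of these letters. The matches describe the sequence and do not show that a factor binds there.

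The 9 genes spanned a wide range of levels. Averaged over all 22 libraries, Crym had the highest level with a mean of 172 FPKM, and 538 genes of the matrix had a higher mean. Lamp5 (32.5 FPKM), Etv1 (30.0), Fezf2 (22.02), Bcl11b (20.5) and Tbr1 (20.3) followed at similar means, then Cux2 (11.4), Rorb (3.19) and Foxp2 (0.773). The plot of levels by library shows every value.

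**Figure D1:**
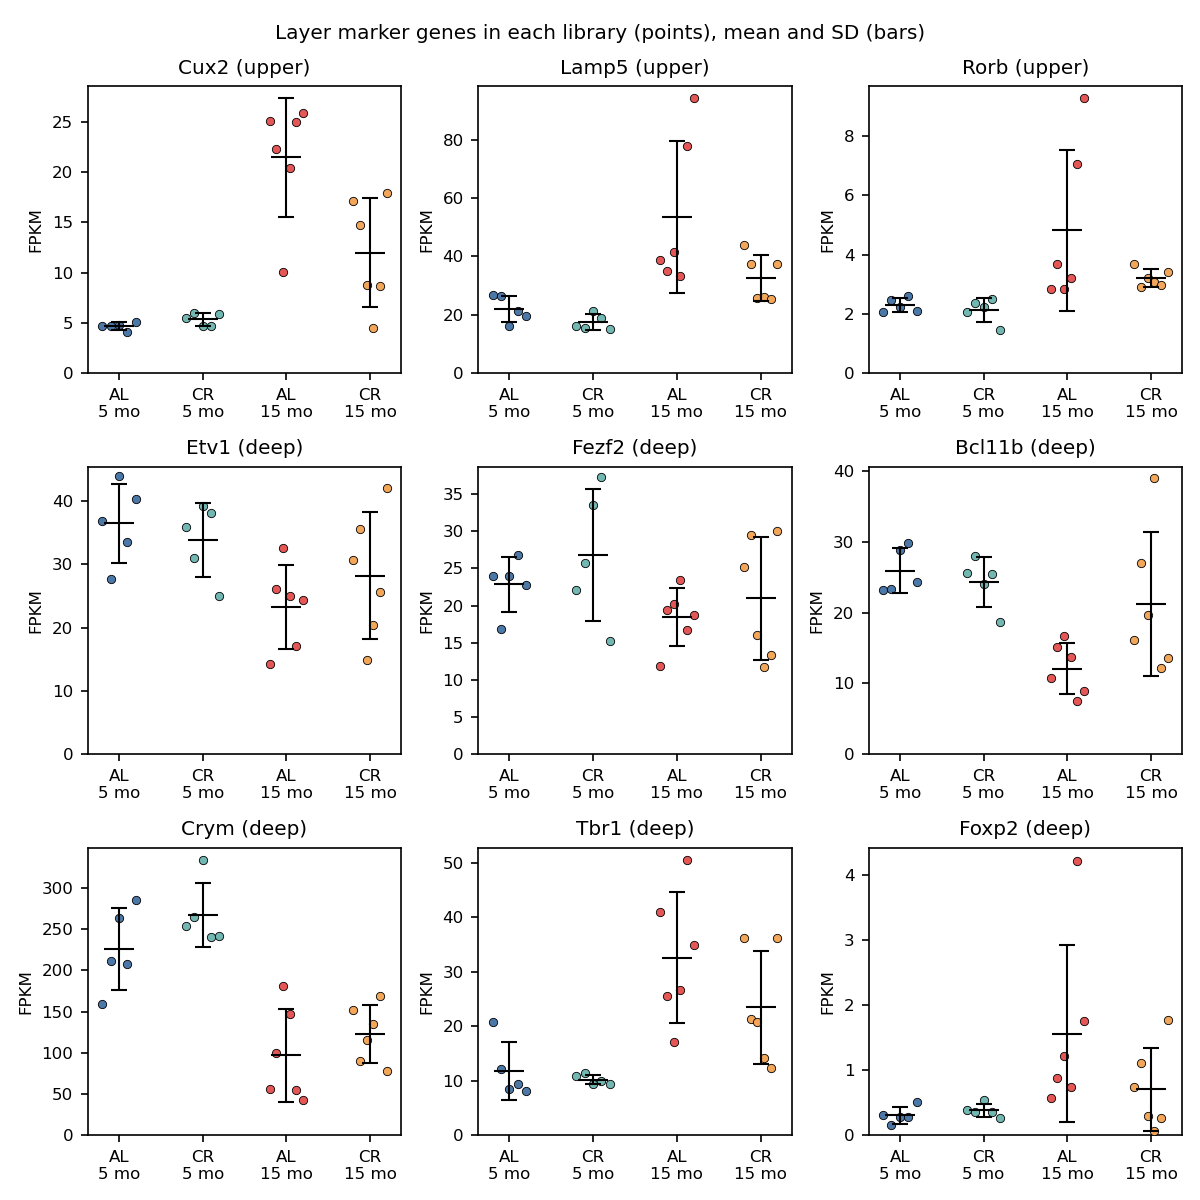
FPKM of the 9 genes in each of the 22 libraries (points) by group, with the mean (wide bar) and SD (error bar); vertical axes start at 0 and differ between genes. At 15 months in AL mice all 6 libraries of Cux2, Lamp5, Rorb and Foxp2 lie above every AL library at 5 months, and all 6 of Bcl11b lie below.

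Across the libraries as a whole, median FPKM ranged from 2.51 to 3.10 and 18281 to 19175 genes were above 0. The summed FPKM of a library was less even, from 639064 (AL replicate 1 at 15 months) to 1297910 (CR replicate 2 at 5 months). In AL mice at 15 months it was 710197, 639064 and 690405 in replicates 0, 1 and 2. Replicates 3, 4 and 5 of that group were at 953198, 964105 and 929120. In CR mice at 15 months, replicates 0 to 3 lay between 710236 and 763660, and replicates 4 and 5 were at 934066 and 956201. Marker lists of other cell types moved with age as well. The 7 listed CA1 pyramidal neuron genes summed to between 239 and 527 FPKM in AL mice at 5 months and between 180 and 281 FPKM at 15 months, and 5 of them (Fibcd1, Spink8, Pou3f1, Lefty1 and Man1a) fell in AL mice with age, while Mpped1, the most abundant, had a log2 fold change of -0.16. Among the 6 listed striatal genes, Drd1a (1.51) and Gpr6 (1.45) rose on the log2 scale in AL mice with age. Drd2 (0.32), Adora2a (0.01) and Rgs9 (-0.09) did not pass the test. No listed gene was at 0 throughout a group. The AL libraries at 15 months with replicate numbers 4 and 5 had the lowest mean log2 level of the CA1 list in their group (2.58 and 2.71, against 3.46 to 4.44 in the other 4), and they carried the highest Lamp5, Rorb and Foxp2 levels, so results that rest on them are also given without them.

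In AL mice, age changed 8 of the 9 genes, 5 of them upward and 3 downward. Cux2, Lamp5, Rorb, Tbr1 and Foxp2 rose, Etv1, Bcl11b and Crym fell, and Fezf2 did not pass the test. The test was limma on log2(FPKM + 0.1) across all 16978 genes, two-sided, with Benjamini-Hochberg adjustment, and a gene was called at an adjusted p under 0.05. Of all genes tested, 20.6% were called in this comparison (10.7% higher and 9.97% lower). The libraries of both ages did not overlap for 5 of the 9 genes, against 14% of all genes. The median log2 fold change of the 9 genes was 0.88, and that of all genes tested was -0.0018. Because the 9 genes were chosen with earlier results known, these values beside all genes are descriptions and not independent evidence. In bulk tissue, fewer cells of a type and less RNA per cell cannot be told apart. The mean log2 level of the CA1 list was 5.43 in AL mice at 5 months and 3.39 at 15 months. Tissue content and age thus cannot be told apart either. Log2 fold changes are fitted differences on the log2(FPKM + 0.1) scale and understate the change of low genes such as Foxp2.

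Among the upper-layer genes, Cux2, a homeodomain transcription factor that shapes dendrites and spines of upper-layer neurons, changed most. In AL mice at 5 months, Cux2 was at 4.72, 4.70, 4.79, 4.10 and 5.11 FPKM, and at 15 months its lowest, median and highest values were 10.05, 23.7 and 25.9 FPKM. Even the lowest library at 15 months, replicate 2, stood above all 5 young libraries, and the other 5 lay at 20.4 FPKM or more. The mean rose 4.58-fold, from 4.68 ± 0.366 to 21.5 ± 5.95 FPKM (SD), a log2 fold change of 2.11 (SE 0.28, limma adjusted p = 0.000173, higher in 6 of 6 libraries). The exact two-sided permutation test gave p = 0.00433, where 0.00216 is the smallest possible with 5 and 6 libraries.

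Lamp5, a lysosome-associated membrane protein of neurons, was at 26.8, 26.4, 16.3, 21.2 and 19.6 FPKM in AL mice at 5 months. At 15 months its values ran from 33.4 over a median of 40.1 to 94.5 FPKM. Young and older libraries were separate, and replicates 4 and 5 at 15 months (77.96 and 94.5 FPKM) stood well above the other 4, which reached at most 41.4 FPKM. Lamp5 rose by 1.17 on the log2 scale (SE 0.24, limma adjusted p = 0.00241). Without both high libraries it was 0.77 (SE 0.17, limma adjusted p = 0.0084), more than 1.5 times lower but still past the threshold.

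Rorb, an orphan nuclear receptor that marks layer 4, was low, at 2.06, 2.47, 2.22, 2.59 and 2.11 FPKM in AL mice at 5 months. At 15 months its lowest, median and highest values were 2.82, 3.45 and 9.29 FPKM, again without overlap, and the same replicates 4 and 5 (7.06 and 9.29 FPKM) were the highest. Rorb rose by a log2 fold change of 0.88 (SE 0.24, limma adjusted p = 0.0141), and by 0.43 (SE 0.13, limma adjusted p = 0.0346) without these libraries. In a fit of the AL groups alone the call was lost (limma adjusted p = 0.055).

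The deep-layer genes were divided. Those of layer 5 and Crym went down or did not pass, and Tbr1 and Foxp2, which mark layer 6, went up. Bcl11b, a zinc finger factor of neurons that project below the cortex, was at 23.2, 23.3, 28.9, 29.8 and 24.3 FPKM in AL mice at 5 months. At 15 months it ranged from 7.46 to 16.6 FPKM with a median of 12.2. All 6 older libraries were below all 5 young libraries. The mean fell from 25.9 ± 3.19 to 12.1 ± 3.63 FPKM (SD), a log2 fold change of -1.14 (SE 0.25, limma adjusted p = 0.0034). Bcl11b is also a gene of CA1 pyramidal neurons. With the CA1 list level of each library as a covariate, the log2 fold change of Bcl11b was -0.21 (limma adjusted p = 0.663). That level differs between the ages, so tissue content and age cannot be told apart in this fit.

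Crym, which encodes a protein that binds thyroid hormone in the cytosol, was at 160, 212, 263, 208 and 286 FPKM in AL mice at 5 months. At 15 months its lowest, median and highest values were 43.1, 77.3 and 181 FPKM. Of the 6 older libraries 5 were below every young library, and the sixth, replicate 2, overlapped with the lowest young one. Crym fell by 1.40 on the log2 scale (SE 0.31, limma adjusted p = 0.00365), the largest decrease of the 9 genes in this comparison.

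Etv1, an ETS family factor of layer 5 neurons, was at 36.8, 27.7, 43.9, 33.6 and 40.3 FPKM in AL mice at 5 months, and ran from 14.3 over a median of 24.7 to 32.6 FPKM at 15 months. The groups overlapped, with 5 of 6 older libraries below every young one. Etv1 fell by 0.68 on the log2 scale (SE 0.23, limma adjusted p = 0.0434). This call lay at the threshold: it held in 11 of the 22 fits that each left out 1 library, with adjusted p up to 0.109 among the others. It was lost without any of the AL libraries with replicate numbers 0, 2, 3 and 4 at 5 months or 0, 1, 3, 4 and 5 at 15 months, and without CR replicates 0 or 1 at 5 months. Without AL replicates 4 and 5 at 15 months together, the log2 fold change of Etv1 was -0.62 (SE 0.27, limma adjusted p = 0.115).

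Fezf2, the factor that directs layer 5 neurons toward subcerebral targets, was at 23.9, 16.9, 23.9, 26.8 and 22.8 FPKM in AL mice at 5 months. At 15 months it lay between 11.9 and 23.5 FPKM with a median of 19.1. The ranges overlapped over most of their extent, and the log2 fold change of -0.32 (SE 0.26) did not pass the test (limma adjusted p = 0.386).

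Tbr1, a T-box factor of layer 6 and the subplate that is also made in the subiculum, was at 20.8, 12.2, 8.44, 9.42 and 8.03 FPKM in AL mice at 5 months. At 15 months its lowest, median and highest values were 17.0, 30.7 and 50.5 FPKM. Replicate 0 at 5 months was the highest young library and overlapped with the lowest older one, and it also had the highest subiculum list level of the 5-month libraries (3.30 on the log2 scale, against 1.29 to 2.69 in the other 9). Tbr1 rose by a log2 fold change of 1.47 (SE 0.30, limma adjusted p = 0.0023), and by 1.70 (SE 0.29, limma adjusted p = 0.00101) without that library. In AL mice at 15 months, replicate 4 had the highest Tbr1 level but the lowest subiculum list level (1.47). Replicate 0, next in Tbr1 at 40.9 FPKM, had the highest subiculum list level of that group (4.06). Whether Tbr1 follows this list was not tested. From these same libraries the study lists Tbr1 as lower in CR than in AL mice at 15 months, so the direction of Tbr1 is not independent evidence.

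Foxp2, a forkhead factor of layer 6 neurons that project to the thalamus, was near the limit of the filter in AL mice at 5 months, at 0.301, 0.158, 0.272, 0.276 and 0.504 FPKM. At 15 months it ranged from 0.569 over a median of 1.04 to 4.21 FPKM, above all young libraries. The mean rose 5.17-fold, from 0.302 ± 0.126 to 1.56 ± 1.36 FPKM (SD), a log2 fold change of 1.79 (SE 0.51, limma adjusted p = 0.0172). Without AL replicates 4 and 5 at 15 months it was 1.25 (SE 0.50) and the call was lost (limma adjusted p = 0.0908). The number of reads behind these low values is unknown.

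**Figure D2:**
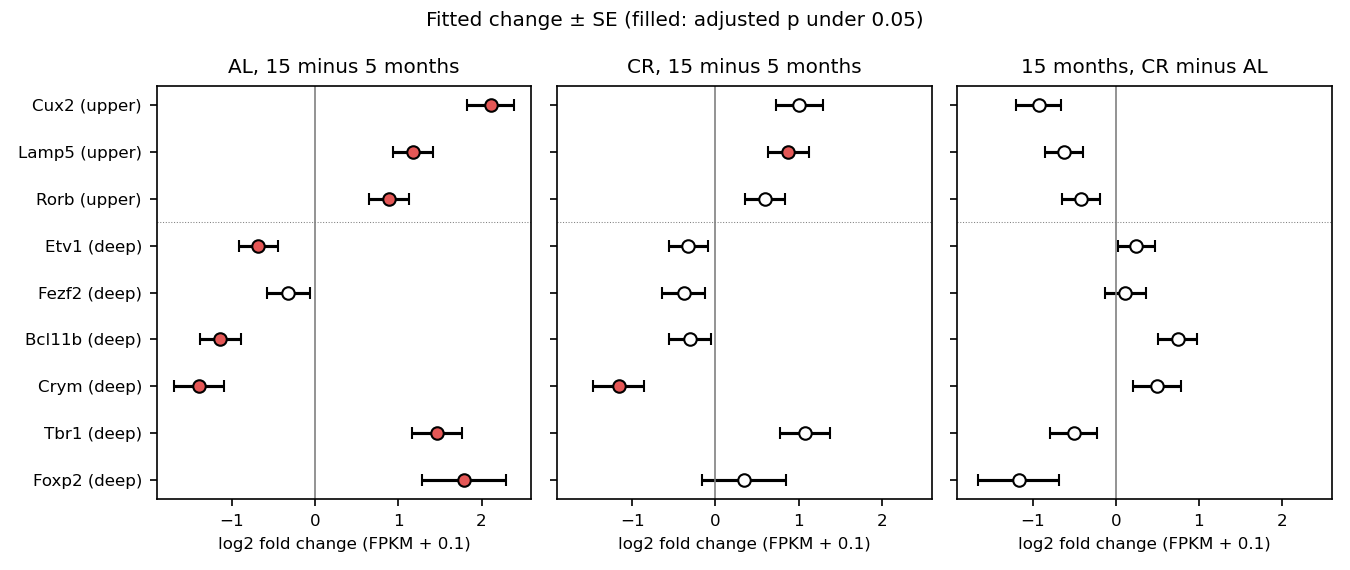
Fitted log2 fold change of each gene with its SE (horizontal bars) in AL mice with age, in CR mice with age, and between diets at 15 months; filled points have a limma adjusted p under 0.05. With age in AL mice 8 of the 9 genes are filled, with age in CR mice Lamp5 and Crym are, and between diets at 15 months no gene is.

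In CR mice, 2 of the 9 genes passed the test with age: Lamp5 rose and Crym fell. Of all genes tested, 3.36% were called (1.1% higher and 2.26% lower), 570 genes that became 331 without CR replicate 1 and 347 without CR replicate 4 at 5 months. The libraries of both ages did not overlap for 4 of the 9 genes (Lamp5, Rorb, Crym and Tbr1), against 3.26% of all genes. The fitted direction of every gene was the one seen in AL mice, with a median log2 fold change of 0.34 against 0.0014 for all genes.

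Lamp5 in CR mice was at 16.3, 15.5, 21.4, 19.0 and 15.1 FPKM at 5 months and ran from 25.5 over a median of 31.7 to 43.8 FPKM at 15 months. All older libraries were above all young ones. Lamp5 thus rose by 0.88 on the log2 scale (SE 0.24, limma adjusted p = 0.0488), and the call held in 7 of the 22 fits that left out 1 library, those without AL replicates 1, 3, 4 or 5 or CR replicates 2, 3 or 4 at 15 months. Crym was at 254, 264, 334, 241 and 241 FPKM at 5 months and between 77.8 and 169 FPKM at 15 months, with a median of 125, again without overlap. Crym fell by 1.16 on the log2 scale (SE 0.31, limma adjusted p = 0.0386), and the call held in 13 of the 22 such fits. It was lost without AL replicate 1 or any CR replicate at 5 months, and without CR replicates 1, 2 or 5 at 15 months. Both calls lay close to the threshold, which the shared spread of all 4 groups sets.

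Cux2 in CR mice was at 5.44, 6.01, 4.67, 4.69 and 5.85 FPKM at 5 months, and its lowest, median and highest values at 15 months were 4.47, 11.8 and 17.9 FPKM. Of the 6 older libraries 5 were above all young ones, and replicate 3 was below all of them. The log2 fold change of 1.01 (SE 0.28) missed the threshold (limma adjusted p = 0.0552), and without replicate 3 it was 1.26 (SE 0.23, limma adjusted p = 0.00414). Cux2 also passed without AL replicate 2 at 15 months. CR replicate 3 at 15 months had the lowest Cux2 and Foxp2 (0.0688 FPKM) and the highest Bcl11b (39.0 FPKM) in its group, together with the highest level of the dentate granule cell list among all libraries (4.41 on the log2 scale).

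Tbr1 in CR mice was at 10.9, 11.3, 9.43, 9.83 and 9.39 FPKM at 5 months, a narrow range. At 15 months it lay between 12.4 and 36.2 FPKM with a median of 21.0, above all young libraries. The log2 fold change of 1.08 (SE 0.30) had a limma adjusted p of 0.052, and of 0.029 without CR replicate 3 at 15 months. Tbr1 also passed without CR replicate 4 or AL replicates 2 or 4 at 15 months, or without AL replicate 0 at 5 months. Rorb was at 2.07, 2.35, 2.24, 2.51 and 1.45 FPKM at 5 months and at 2.90, 3.14 and 3.67 FPKM (lowest, median and highest) at 15 months. Its groups did not overlap either (log2 fold change 0.59, SE 0.24, limma adjusted p = 0.191; exact permutation p = 0.00216, the smallest possible). The CR libraries of Rorb at 15 months had an SD of 0.290 FPKM, against 2.71 FPKM in AL mice of that age.

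Bcl11b in CR mice was at 25.7, 28.1, 24.0, 25.5 and 18.6 FPKM at 5 months and ran from 12.2 over a median of 17.8 to 39.0 FPKM at 15 months. The older libraries lay on both sides of the young ones, and the fitted difference of -0.31 (log2, SE 0.25) did not pass (limma adjusted p = 0.545). Etv1 was at 36.0, 31.0, 39.3, 38.1 and 24.9 FPKM at 5 months and ran from 14.9 over 28.2 to 42.1 FPKM at 15 months, with a log2 fold change of -0.33 (SE 0.23, limma adjusted p = 0.491). For both genes the older group had a wider spread than the young group.

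Fezf2 in CR mice was at 22.1, 25.7, 33.5, 37.4 and 15.3 FPKM at 5 months and ran from 11.7 over 20.6 to 30.0 FPKM at 15 months, with a log2 fold change of -0.38 (SE 0.26, limma adjusted p = 0.458). Foxp2 was at 0.383, 0.347, 0.540, 0.351 and 0.269 FPKM at 5 months and ran from 0.0688 over 0.515 to 1.77 FPKM at 15 months, with a log2 fold change of 0.34 (SE 0.51, limma adjusted p = 0.770). Both ranges at 15 months enclosed or overlapped most of the younger values. Neither gene passed the test in CR mice.

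Between diets at 15 months, none of the 9 genes passed the test, where 0.742% of all genes tested were called. That background, 126 genes, was unstable: it lay between 15 (without AL replicates 0 or 4 or CR replicate 3 at 15 months) and 732 genes (without CR replicate 0 at 15 months) when 1 library was left out, and at 0 in a fit of both groups alone. At an unadjusted p under 0.05, which 17.1% of all genes reached, 4 of the 9 genes remained: Cux2, Lamp5 and Foxp2 with lower fitted levels in CR mice and Bcl11b with a higher one. For none of the 9 genes were the libraries of the diets without overlap, against 0.984% of all genes. The median log2 fold change of the 9 genes was -0.42, and that of the 3 upper-layer genes was -0.62.

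Cux2 averaged 11.95 ± 5.43 FPKM in CR mice and 21.5 ± 5.95 FPKM in AL mice (SD, n = 6 each), a log2 fold change of -0.93 (SE 0.27, limma adjusted p = 0.102). The exact two-sided permutation p was 0.039, and 3 of the 6 CR libraries were below every AL library. The adjusted p ranged from 0.0371 to 0.357 over the alternatives, and it passed without CR replicate 0 (-1.06, adjusted p = 0.0371) or without CR replicate 5 (-1.07, adjusted p = 0.0402). Bcl11b averaged 21.2 ± 10.2 FPKM in CR mice and 12.1 ± 3.63 FPKM in AL mice, a log2 fold change of 0.74 (SE 0.24, limma adjusted p = 0.125, exact permutation p = 0.0455). Without CR replicate 3, its highest library, the Bcl11b difference was 0.54 (SE 0.20, limma adjusted p = 0.301).

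Lamp5 averaged 32.7 ± 7.88 FPKM in CR mice and 53.5 ± 26.1 FPKM in AL mice, and its log2 fold change of -0.62 (SE 0.23, limma adjusted p = 0.182) was -0.21 without AL replicates 4 and 5. Foxp2 averaged 0.705 ± 0.642 FPKM in CR mice and 1.56 ± 1.36 FPKM in AL mice, with a log2 fold change of -1.17 (SE 0.48, limma adjusted p = 0.225) that was -0.63 without them. Rorb had a log2 fold change of -0.42 (SE 0.23), which turned to 0.03 without them. All 3 differences thus shrank or turned without these 2 AL libraries.

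The remaining 4 genes did not pass the test between diets at 15 months either. Log2 fold changes were -0.51 (SE 0.29) for Tbr1, 0.50 (SE 0.29) for Crym, 0.25 (SE 0.22) for Etv1 and 0.12 (SE 0.25) for Fezf2, with limma adjusted p between 0.378 and 0.845. The study, which used Cuffdiff on the same libraries, lists Tbr1 as lower in CR than in AL mice at 15 months, a call not reached here. A gene that missed the threshold was not shown to have the same level on both diets.

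At 5 months, diet moved none of the 9 genes past the threshold, and 0% of all genes were called by limma at that age. None of the 9 reached an unadjusted limma p under 0.05, as 789 of 16978 genes (4.65%) did, and the exact permutation p was 0.0952 or higher for each of them, with 0.00794 the smallest possible for 5 and 5 libraries. The libraries of the diets overlapped for all 9 genes, where 1.36% of all genes did not overlap. Log2 fold changes ranged from -0.32 (Lamp5, SE 0.25) to 0.28 (Foxp2, SE 0.53).

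CR mice at 15 months were also set against AL mice at 5 months, where 3.12% of all genes were called. These 529 genes became 181 without AL replicate 2 at 5 months and 925 without CR replicate 2 at 15 months, the lowest and highest counts with 1 library left out. Cux2 was the gene of the 9 that passed, at 11.95 ± 5.43 against 4.68 ± 0.366 FPKM (log2 fold change 1.19, SE 0.28, limma adjusted p = 0.0264), and 5 of 6 CR libraries were above all AL ones. Without CR replicate 3 the log2 fold change was 1.44 (limma adjusted p = 0.00245), and the call was lost without AL replicates 1, 2, 3 or 4 at 5 months or CR replicates 0, 1 or 5 at 15 months. Tbr1 (0.96, SE 0.30, limma adjusted p = 0.0815) passed without AL replicate 0 at 5 months or CR replicates 3 or 4 at 15 months. Rorb was the gene without overlap, in which 2.94% of all genes shared, at a log2 fold change of 0.47 (SE 0.24, limma adjusted p = 0.297). This comparison shares its libraries with the ones above and adds no independent samples.

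The change with age was also compared between diets directly, as an age by diet interaction in the same limma fit. No gene of the 9 passed, and 0% of all genes did, while 1301 of all 16978 genes (7.66%) had an unadjusted p under 0.05. Cux2 (-1.10, SE 0.40, unadjusted p = 0.0123, adjusted p = 0.628) and Bcl11b (0.84, SE 0.35, unadjusted p = 0.0268, adjusted p = 0.639) were the 2 of the 9 at that unadjusted level. That more of the 9 genes were called with age in AL than in CR mice is thus not shown to be a difference between diets.

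The level of upper-layer against deep-layer genes was described per library as the mean log2(FPKM + 0.1) of the 3 upper genes minus that of the 6 deep genes, with no test because the genes were chosen with results known. In AL mice at 5 months the 5 values were -1.41, -1.02, -1.59, -1.41 and -1.54, and in CR mice at 5 months they were -1.58, -1.52, -1.69, -1.57 and -1.38. In AL mice at 15 months the lowest, median and highest were -0.82, 0.03 and 0.92, and in CR mice at 15 months they were -0.76, -0.58 and -0.46. All 12 older libraries lay above all 10 young ones.

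The mean of the 3 upper genes went from 2.65 ± 0.10 to 4.04 ± 0.55 (SD, log2 scale) in AL mice with age, whereas that of the 6 deep genes was 4.04 ± 0.14 and 3.997 ± 0.23. The deep mean averages members that moved in opposite directions. The difference between upper and deep genes changed by 1.44 with age in AL mice (1.11 without replicates 4 and 5) and by 0.95 in CR mice. Its spread at 15 months was wider in AL mice (SD 0.63) than in CR mice (SD 0.14). Within the deep genes, Tbr1 and Foxp2 minus the layer 5 genes Etv1, Fezf2 and Bcl11b averaged -3.74 ± 0.34 at 5 months and -1.39 ± 0.92 at 15 months in AL mice (SD, log2 scale).

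**Figure D3:**
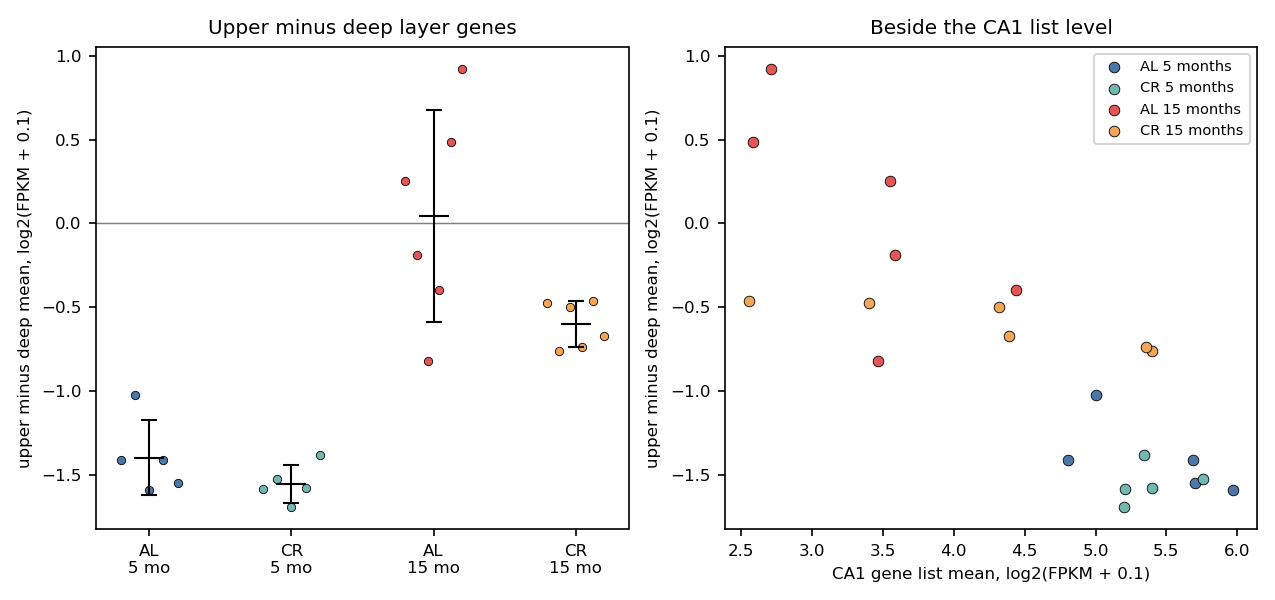
Left, mean log2(FPKM + 0.1) of the upper genes minus that of the deep genes in each library, with the mean and SD of each group. Right, the same value against the mean log2(FPKM + 0.1) of the 7 CA1 pyramidal neuron genes, in which the young libraries lie together at the lower right and the AL libraries at 15 months with replicate numbers 4 and 5 at the upper left.

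The CA1 list level was lower at 15 months, where the upper minus deep difference was higher. Its mean log2 level was 5.43 ± 0.50 in AL mice at 5 months, 5.38 ± 0.23 in CR mice at 5 months, 3.39 ± 0.68 in AL mice at 15 months and 4.24 ± 1.11 in CR mice at 15 months (SD). CR replicate 4 at 15 months had the lowest value of all (2.56) and an upper minus deep difference of -0.46, next to the -0.47 of CR replicate 0. With the CA1 list level added to the limma fit, 1 of the 9 genes was still called with age in AL mice, Cux2 at a log2 fold change of 1.86 (SE 0.42, limma adjusted p = 0.0385). In that fit Lamp5 was at 0.64, Rorb at 0.46, Etv1 at -0.55, Crym at -1.19, Tbr1 at 1.09 and Foxp2 at 1.32, none past the threshold, and all genes called numbered 358. The list level differs between the ages, so the fit removes part of the age difference itself, and tissue content and age cannot be told apart in it.

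Other layer markers, written from general knowledge, were counted in the same fit. Of 10 further upper-layer genes, 5 rose with age in AL mice (median log2 fold change of the list 0.89): Cux1, a paralog of Cux2 (0.94), Rasgrf2 (0.84), Otof (1.92), Unc5d (1.26) and the semaphorin receptor Plxnd1 (1.90). Mdga1, a cell adhesion gene of upper layers, fell by 1.58 on the log2 scale, and Lhx2, the most abundant of the list, had a log2 fold change of 0.19. The study picked Cux1, Unc5d and Plxnd1 from these libraries, so the count is not independent evidence.

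Of 9 layer 5 genes, Deptor (1.42) and Qrfpr (1.87) rose and Crim1 (-0.70) and Fam84b (-1.40) fell, and the median was 0.22. Of 8 layer 6 genes, 5 rose and none fell, with a median of 1.48: the neurotensin receptor Ntsr1 (1.90), Nxph4 (1.89), Cplx3 (1.99), Ctgf (2.05) and Moxd1 (1.07). Nxph4, Cplx3 and Ctgf are markers of the deepest layer 6 neurons next to the white matter. Rprm, the most abundant layer 6 gene, was at 0.91 and did not pass (limma adjusted p = 0.0563). The study picked Ntsr1 from these libraries.

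None of the 4 subiculum genes tested passed in AL mice (median 0.43), and Scn4b, the most abundant, was at 0.45 (SE 0.65). In CR mice with age, Cplx3 (1.88) was the layer gene of these 4 lists that passed. Between diets at 15 months no gene of any list passed.

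**Figure D4:**
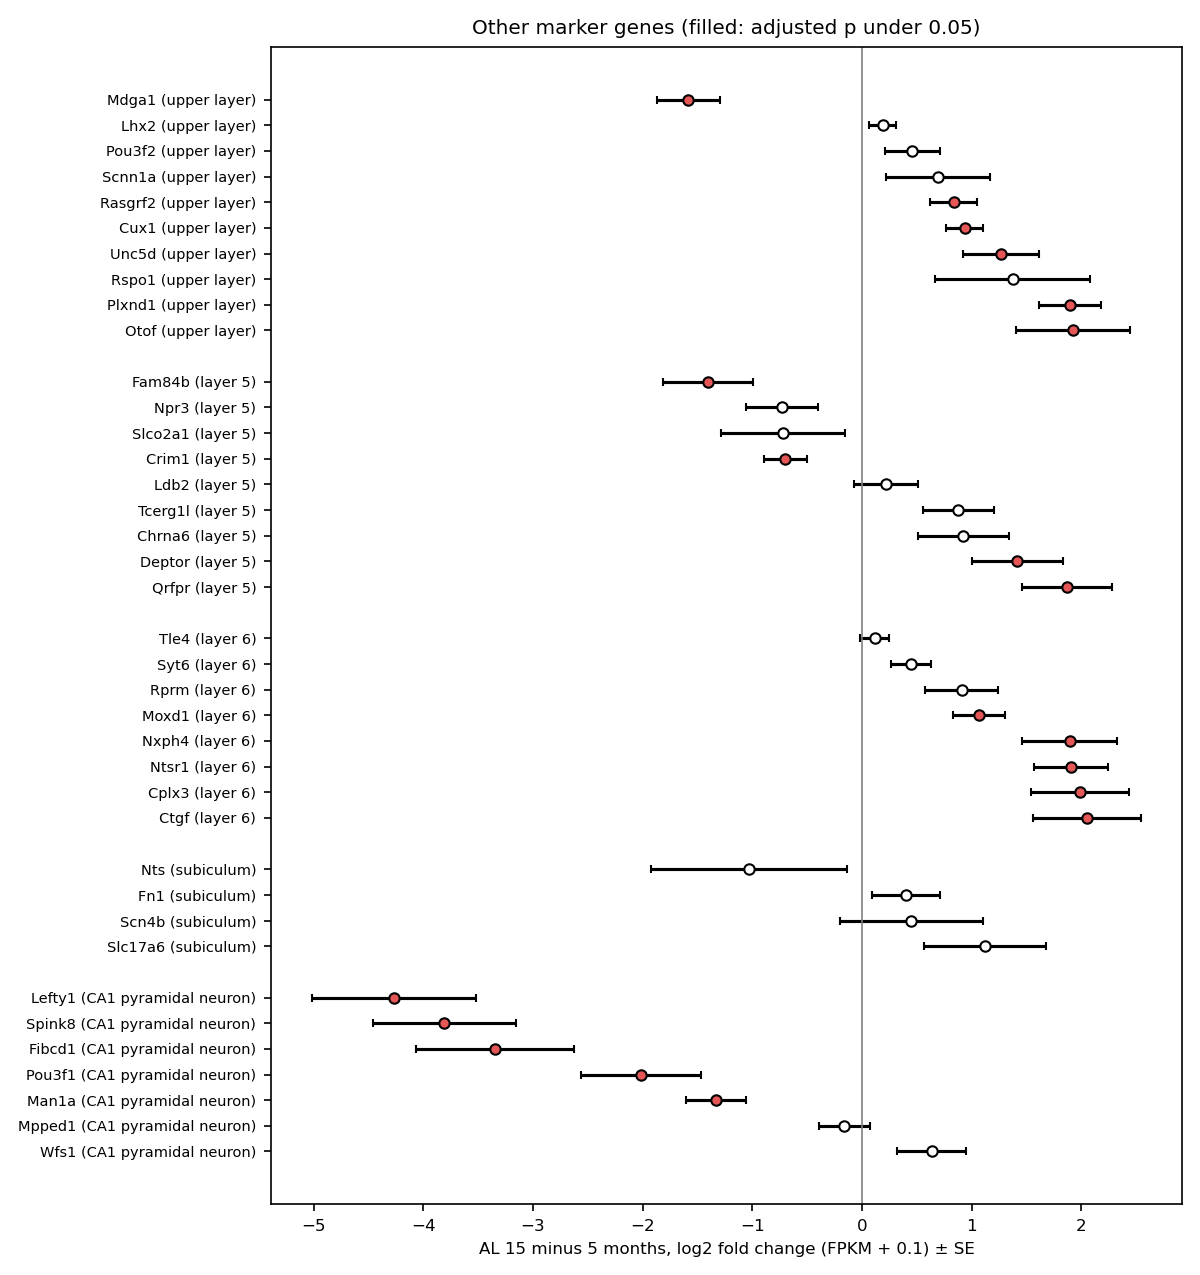
Log2 fold change with age in AL mice of the other layer, subiculum and CA1 genes, with SE; filled points have a limma adjusted p under 0.05. Of the upper-layer genes 5 rose and 1 fell, of the layer 6 genes 5 rose, and of the CA1 genes 5 fell.

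Among the lists of other cells in AL mice with age, 1 of 4 CA3 genes (Iyd, -2.21) and 2 of 5 dentate granule cell genes (Dsp, -3.36, and Lct, -3.36) fell, and 1 of 3 thalamic genes rose (Lef1, 0.94). Among glial lists, 1 of 5 astrocyte genes rose (Aldh1l1, 0.43) and 1 fell (Gfap, -0.66), and 1 of 5 microglial genes fell (Tmem119, -0.60), while Slc1a3 and C1qa, the most abundant of these lists, and the oligodendrocyte gene Mbp did not pass. None of the 8 interneuron genes, Sst the most abundant, and none of the 4 endothelial genes, Ly6c1 the most abundant, passed. Of the 6 choroid plexus genes, 4 fell in AL mice (Ttr, Folr1, Clic6 and Otx2) and 6 in CR mice, whereas of the striatal genes Drd1a rose in CR mice as well (1.46). The part of these cell types in the changes of the 9 genes was not tested beyond the CA1 list level.

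The 9 genes varied together only in part within groups. After each group's mean was subtracted, Lamp5 and Rorb had a Pearson r of 0.78 over the 22 libraries, Etv1 and Fezf2 of 0.77 and Cux2 and Tbr1 of 0.70, and Crym and Tbr1 of -0.68. Etv1 and Rorb were nearly unrelated (0.02), as were Crym and Fezf2 (0.04). The points are single libraries of bulk tissue and share their dissection, so these values are descriptions.

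For each gene the most similar profiles were taken from the 13839 genes averaging 1 FPKM or more, by the same r. For the upper-layer genes these were Fhod3 (0.93) and Sowahb (0.90) for Cux2, Mef2c (0.90) and Ipcef1 (0.90) for Lamp5, and Pak7 (0.85) and Lrrc4c (0.83) for Rorb. For the layer 5 genes they were Elfn1 (0.77) and Fezf2 (0.77) for Etv1, Col6a2 (0.87) and Kazn (0.84) for Fezf2, and Dcakd (0.93) and Doc2b (0.89) for Bcl11b. Rab26 (0.88) and Entpd6 (0.86) were closest to Crym, Tshz3 (0.85) and Gsg1l (0.84) to Tbr1, and Adra1b (0.92) and Lypd6b (0.89) to Foxp2. Fezf2, named for Etv1, was the single instance in which another of the 9 genes was among these profiles.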

How the data were processed

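One matrix of FPKM values for 22 libraries, 1 per mouse, was used as the authors deposited it. The authors aligned paired reads from unstranded TruSeq libraries to mm10 with TopHat, removed duplicates with Picard and estimated FPKM with Cufflinks, correcting for fragment bias and multiply mapped reads. Versions and the annotation release are not given in the sources used here. FPKM carries no read count, and whole reads could not be recovered (at most 0.449% of low genes in 3 library pairs lay on a common ratio), so the depth behind a value is unknown. The files hold no counts, and the study's Cuffdiff test needs reads, so limma was used.

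Levels were taken as log2(FPKM + 0.1) for the 16978 genes that averaged 0.1 FPKM or more. The 4 groups were fitted in limma 3.58.1 (R 4.3.3; lmFit, eBayes with trend) with Benjamini-Hochberg adjustment over all genes and a threshold of 0.05. Single genes were also compared by exact two-sided permutation over libraries. The steps were tested on simulated data. Tables and figures used Python 3.11.15, numpy 2.4.6, pandas 2.3.3 and matplotlib 3.10.9. Promoter sequences are from RefSeq (GRCm38.p6) and gene positions from GENCODE M21.

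The 9 genes, the 15 other lists (91 genes, 89 tested) and the tests were chosen with earlier results of these data known. All 9 genes are named; of each list the counts, the genes called with age in AL mice and the gene with the highest mean FPKM; and for each of the 9, the 2 genes with the highest correlation of deviations from group means. Results of some listed genes are not reported here. Alternatives were pseudocounts of 1 and 0.01, all genes above 0, genes averaging 1 FPKM or more, a common library median, quantile normalization, no trend, fits of single comparisons, a block on the replicate number, the CA1 list level as a covariate, each library left out in turn and, chosen after seeing the data, AL replicates 4 and 5 at 15 months left out together. Libraries were sequenced over several runs, and the run of each library was not used here.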

Additional observations from a re-analysis of the deposited data

Results flagged for a closer look

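In 36 sets (9 genes in 4 groups) the highest or lowest library was compared with the rest of its group by the gap to its nearest neighbor, and 3 libraries stood apart. Chance alone flags about 1 in 20 such sets. Cux2 in AL mice at 15 months was at 10.05 FPKM in replicate 2, below the next library at 20.4 FPKM. The change with age in AL mice had a log2 fold change of 2.11 with this library and 2.32 without it. Crym in CR mice at 5 months was at 334 FPKM in replicate 2, above the next library at 264 FPKM. Foxp2 in AL mice at 15 months was at 4.21 FPKM in replicate 4, above the next at 1.76 FPKM, and without this library the log2 fold change with age was 1.45 (limma adjusted p = 0.0402) instead of 1.79.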

How the results depend on the processing

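With age in AL mice, 8 of the 9 genes were called and between 7 and 8 when 1 library was left out, but 6 without AL replicates 4 and 5 at 15 months (Etv1 and Foxp2 lost) and 1 (Cux2) with the CA1 list level as a covariate. With age in CR mice, 2 were called, and between 0 and 4 with 1 library left out. That count was 1 with a pseudocount of 1, with all genes above 0, with a common median, with quantile normalization and without the trend. It was 0 with a mean FPKM of at least 1 or with the CA1 covariate, and 4 without AL replicates 4 and 5 at 15 months, which contribute to the shared spread. Between diets at 15 months, 0 of the 9 were called, and between 0 and 1 with 1 library left out. With the replicate number as a block, 2 were called, Cux2 (adjusted p = 0.0476) and Bcl11b (adjusted p = 0.0338). The numbers do not pair mice: over 31 same-numbered pairs, deviations from group means correlated between -0.139 and 0.163, above 0.1 in 2. For CR at 15 months against AL at 5 months, 1 was called, 0 with the CA1 covariate, 2 without AL replicates 4 and 5, and 0 to 2 with 1 library left out. For diet at 5 months and the interaction, the count was 0 throughout. The upper minus deep change lay between 1.26 and 1.61 for age in AL mice, 0.92 and 0.99 for age in CR mice, and -0.81 and -0.47 for diet at 15 months when 1 library was left out.

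Directions turned in a few fits of uncalled genes. With the CA1 covariate Bcl11b went to 0.22 for age in CR mice and to 0.15 for CR at 15 months against AL at 5 months. Without AL replicates 4 and 5, Rorb went to 0.034 for diet at 15 months, and the interaction went to 0.11 for Lamp5, 0.16 for Rorb and -0.16 for Crym. With 1 library left out, Fezf2 lay between -0.0082 and 0.26 for diet at 15 months and between -0.24 and 0.086 for the interaction, and the diet values at 5 months lay between -0.18 and 0.0031 for Rorb, -0.15 and 0.0012 for Bcl11b, and -0.23 and 0.11 for Tbr1. Foxp2 has no value at a mean FPKM of at least 1. The cause of these shifts was not tested. Depth is unknown, and the 5 or 6 mice per group limit the precision.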
